A study of Caenorhabditis elegans with 8 samples.

Results

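The genes described here are those with the sequence-name form of tRNA genes, a clone name followed by a dot, the letter t and a number. In the table of AMA-1 calls, 173 of 8922 rows had such a name, and all 173 were spelled with a small t. A clone is a cosmid or other insert from which the Caenorhabditis elegans genome was assembled, so genes with 1 clone name lie in 1 stretch of chromosome. The gene table of RefSeq assembly WBcel235 annotated 162 of the 173 as tRNA genes and 11 as tRNA pseudogenes. The name form therefore fitted its label for most rows, and the 11 pseudogenes are given separately where that bears on a result. The names chose these rows within the table, but the table holds only genes with a call in at least 1 condition, so unlisted genes of this name form are counted separately.

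The study compared where RNA polymerase II sits in early embryos of a control and of sig-7 RNAi. The sig-7 product is a nuclear cyclophilin. All libraries came from embryos of strain KW2309, between the 1-cell and the 350-cell stage, collected by bleaching adults grown for 72 h and fixed in 2% formaldehyde for 22 min. The control embryos received the empty RNAi vector L4440, and the other embryos sig-7 RNAi, which the labels also call sig-7 loss. Each condition had 2 libraries of chromatin precipitated with an anti-AMA-1 antibody and 2 input libraries. AMA-1 is the largest RNA polymerase II subunit. Nothing in the labels tells whether replicates were separate cultures. The table gives 1 call per gene and condition. A call of 1 means that a MACS2 broad peak overlapped the gene in both replicates, by at least 250 bp or 45% of the gene. A call of 0 means an overlap in at most 1 replicate. No value per library was given, so the calls have no replicate error, no test over samples was possible, and the depth is unknown. The 95% exact binomial (Clopper-Pearson) intervals below cover counting error only and treat neighbouring genes, which can share a peak, as if they were separate.

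Transfer RNAs carry amino acids to the ribosome, and their genes are transcribed by RNA polymerase III. That polymerase is recruited by the factors TFIIIC and TFIIIB through promoter elements called the A box and the B box, which lie inside the transcribed gene. AMA-1 belongs to RNA polymerase II, so a call at a tRNA gene reports RNA polymerase II at or across it and says nothing of RNA polymerase III. In worms many tRNA genes lie inside the introns of protein-coding genes or in small groups. Near-identical copies exist, which makes calls of single copies uncertain. The amino acid and sequence of each tRNA gene were not analysed here.

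More tRNA-named genes carried a call after sig-7 RNAi than in control. Of the 173 rows, 100 were called in control (background over all listed rows 76.5%) and 141 in sig-7(RNAi) embryos (background 74.0%). In what follows, a gene with a call in each condition is termed shared, a gene with a call in control alone control-only, and a gene with a call in the sig-7 RNAi embryos alone RNAi-only. By pattern, 68 rows were shared, which was 39.3% of the rows against a background of 50.5%. A further 32 were control-only, 18.5% against a background of 26.0%. The remaining 73 were RNAi-only, 42.2% against a background of 23.5%. Among rows called in a single condition, RNAi-only calls made up 69.5% of the 105 tRNA-named rows (95% interval 59.8 to 78.1). The corresponding share was 46.9% of 4311 single-condition rows without the name form (45.4 to 48.4). That pool includes piRNA rows at 27.1% and ncRNA rows at 34.7%. Other kinds leaned as the tRNA-named rows did, with 71.2% of 125 single-condition pseudogene rows, 78.3% of 23 snoRNA rows and all 10 snRNA rows RNAi-only, so the lean is not shown to be particular to tRNA-named genes. The 11 tRNA pseudogenes split evenly, with 3 shared, 4 control-only and 4 RNAi-only. Of the RNAi-only ones, Y59A8B.t1 and Y59A8B.t2 lie within the same protein-coding gene.

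**Figure D1:**
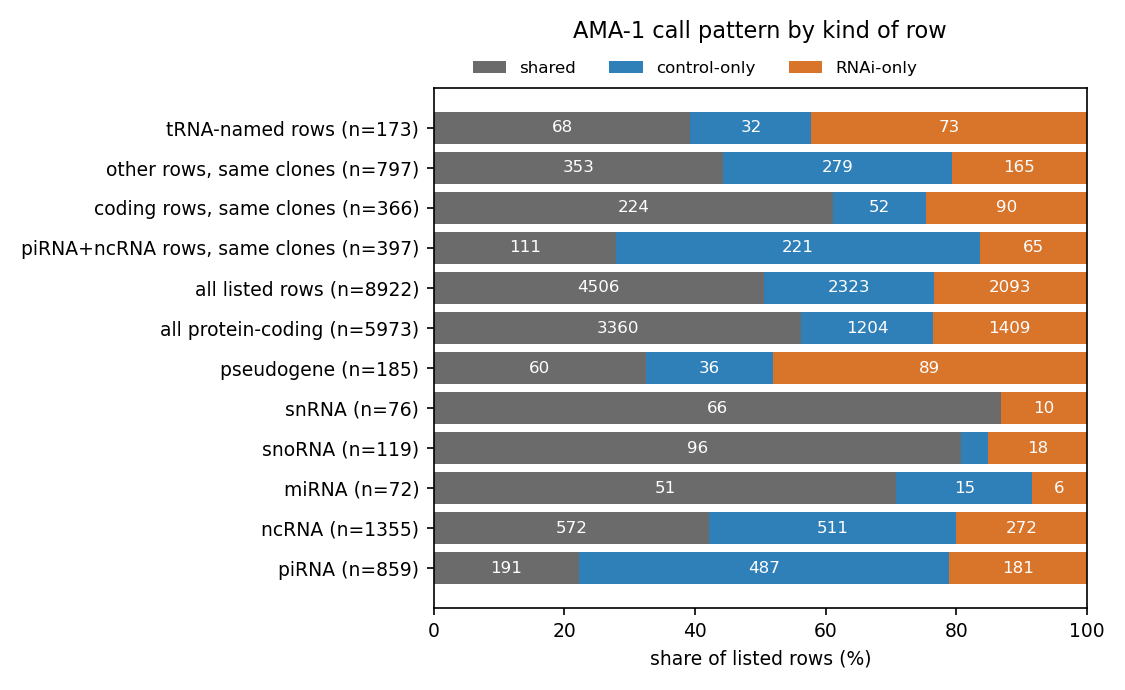
Share of listed rows (x axis, %) that were shared, control-only and RNAi-only, for tRNA-named rows, the other rows of the same clones and each larger kind of gene, with the number of rows in each bar. The tRNA-named rows have 73 RNAi-only and 32 control-only calls, while piRNA and ncRNA rows of the same clones have 65 and 221, of which 3 and 152 come from the clones Y57G11C and B0350.

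Most annotated tRNA genes were not in the table. RefSeq lists 821 genes of this name form, of which 612 are tRNA genes and 209 tRNA pseudogenes. Of the 612 tRNA genes, 162 (26.5%) were listed, against a background of 18.8% over the 46926 genes of the gene table. That share was below the 29.9% of the 19983 protein-coding genes, so it was high only against genes of all kinds. Of the 209 pseudogenes, 11 (5.26%) were listed. Over all 821 genes, 8.28% were shared (background 9.52%), 3.90% control-only (background 4.88%) and 8.89% RNAi-only (background 4.40%). Among protein-coding genes, 16.8% were shared, 6.03% control-only and 7.05% RNAi-only, so the RNAi-only shares lay closer together there. The 22 mitochondrial tRNA genes, which have another name form and are transcribed by a separate mitochondrial polymerase, gave 0 listed genes, as did the 36 mitochondrial genes as a whole. A gene missing from the table either had no call in either condition or was not in the annotation the authors used, and these cases could not be told apart.

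Large groups of tRNA-named genes held few listed ones. Among clones with 6 or more annotated tRNA-named genes, 10 of 123 genes were listed (8.13%, 95% interval 3.97 to 14.4). Clones with a lone tRNA-named gene had 65 of 261 listed (24.9%, 19.8 to 30.6), and clones with 3 to 5 had 63 of 251 (25.1%, 19.9 to 30.9). B0399, with 16 annotated genes, and Y39B6A with 10 had 0 listed. Of the clones with 9, Y43F8C had 0 listed and F22F1 had 2. The clones with 6 or more differ in makeup, since 73 of their 123 genes are pseudogenes. Among annotated tRNA genes alone, 7 of 50 (14.0%) were listed in those clones, against 60 of 217 (27.6%) in clones with a lone gene. These differences were not tested.

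**Figure D2:**
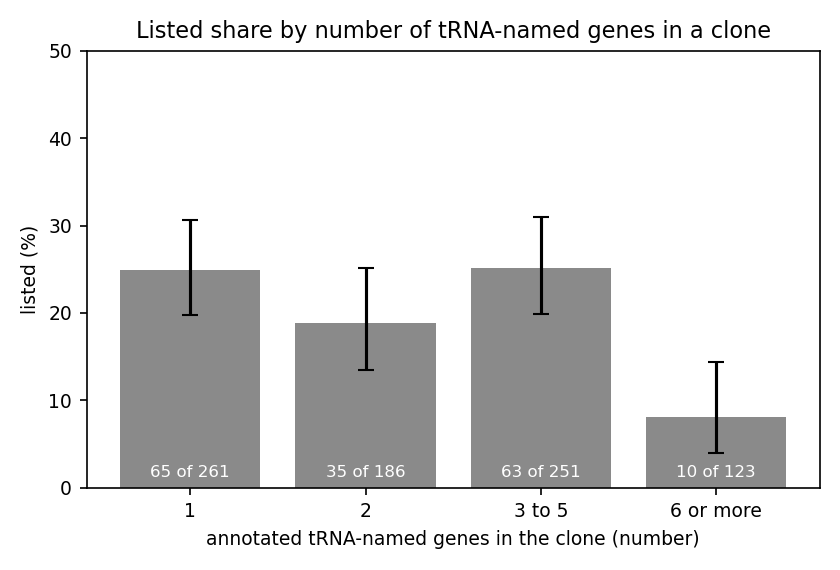
Share of annotated tRNA-named genes that were listed (y axis, %) by how many such genes the clone holds (x axis), with the numbers in each bar and 95% exact binomial intervals. The share is 8.13% in clones with 6 or more and between 18.8% and 25.1% in the others.

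The listed tRNA-named rows came from 131 clones, and calls within a clone mostly had 1 pattern. In 103 clones there was 1 such row, in 17 there were 2, and in 11 there were 3 or more. Of the 28 clones with 2 or more, 24 had a single pattern over all their tRNA-named rows. That pattern was shared in 10 clones, RNAi-only in 10 and control-only in 4. In several of the uniform clones, among them H08J11, K04C2, R11B5 and Y59A8B, all tRNA-named rows lie within the same protein-coding gene. Neighbouring rows can share a peak, so a single pattern is partly built in, and no comparison share was computed. The 4 clones of mixed pattern were Y65A5A, Y7A9D, F41D9 and F08F1. In Y65A5A, t1, t2 and t4 were shared and t3 control-only. In Y7A9D, t3 was shared, and t1 and t2 RNAi-only. F41D9 was the clone with opposite calls, since F41D9.t1 and F41D9.t2 were control-only and F41D9.t3, which lies within the gene sulp-3 (F41D9.5, itself RNAi-only), RNAi-only.

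The clones with the most listed tRNA-named rows are given here beside their surroundings. H08J11 held 5, all control-only, as were all 10 other rows of that clone. Of these 10, 9 were piRNA or ncRNA rows and 0 were protein-coding. All 5 tRNA-named rows lie within ajm-1 (C25A11.4), which encodes a protein of the apical junction of epithelia and was control-only. In K04C2, 3 tRNA-named rows and all 6 other rows were RNAi-only. These 3 lie within brd-1 (K04C2.4), the worm counterpart of the tumour suppressor gene BARD1. In R11B5, 3 tRNA-named rows and all 5 other rows were shared, and the 3 lie within tbc-12 (R11B5.1). That gene is the only protein-coding row of the clone, and the other 4 are piRNA or ncRNA rows. C06G1 likewise had 3 tRNA-named rows and 4 other rows, all shared.

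Other clones of this size were less uniform. In C25F6, t1, t2 and t3 were control-only, as were 11 of 14 other rows, and the other 3 were shared. In C16B8, t1, t2 and t3 were shared, as were 2 of 3 other rows. In W09G10, the 3 tRNA-named rows were RNAi-only, while the sole other row, the cuticle collagen gene col-72 (W09G10.1), was shared. W09G10.t1 lies within col-72, and W09G10.t2 and W09G10.t3 had no listed gene of another kind next to them. In Y59A8B, 3 tRNA-named rows were RNAi-only while all 20 other rows were shared. These 3, of which Y59A8B.t1 and Y59A8B.t2 are annotated as tRNA pseudogenes, lie within usp-50 (E01B7.1). That gene is named after another clone and was RNAi-only.

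**Figure D3:**
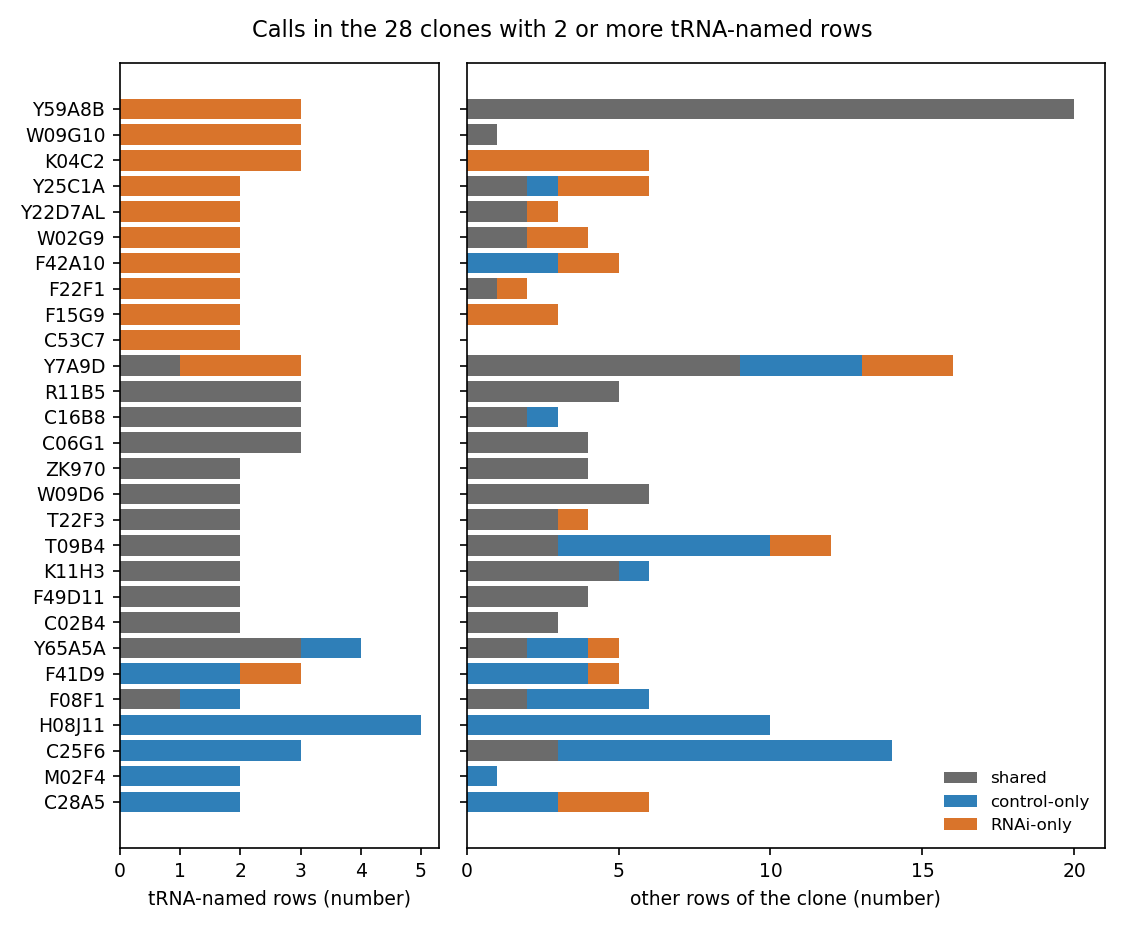
Number of tRNA-named rows (left x axis) and of other rows (right x axis) by call pattern for each of the 28 clones with 2 or more tRNA-named rows. H08J11 is control-only throughout, K04C2 RNAi-only throughout, and Y59A8B has 3 RNAi-only tRNA-named rows beside 20 shared other rows.

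Over all clones, the pattern of a tRNA-named row usually recurred among the other rows of its clone. The 131 clones held 797 other rows, with a median of 4 and a maximum of 143 in the 125 clones that had any. Of 166 tRNA-named rows with another row in their clone, 151 (91.0%, 95% interval 85.5 to 94.9) had at least 1 of the same pattern. For 63 all other rows of the clone had that pattern, for 88 some had it, and for 15 none had it. By pattern, a match was found for 66 of 67 shared rows, 27 of 31 control-only rows and 58 of 68 RNAi-only rows. The same measure, taken against rows of other kinds, was 98.6% for 72 miRNA rows, 96.6% for 116 snoRNA rows, 94.6% for 74 snRNA rows, 87.9% for 824 piRNA rows, 87.8% for 1300 ncRNA rows, 82.9% for 170 pseudogene rows and 67.3% for 3154 protein-coding rows. These shares depend on how many rows a clone holds and were not tested against each other.

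Summed over clones, the other rows leaned to control, and this lean rested on the clones Y57G11C and B0350. Of the 797 other rows, 279 were control-only and 165 RNAi-only. These clones, with 1 tRNA-named row each, held 203 of the 797 and 154 of the 279. Without them the other rows had 125 control-only and 156 RNAi-only calls, so the direction reversed. Among the piRNA and ncRNA rows of all 131 clones, 221 were control-only and 65 RNAi-only, which became 69 and 62 without Y57G11C and B0350. Among the 366 protein-coding rows, 52 were control-only and 90 RNAi-only, so that 63.4% of their single-condition calls were RNAi-only (54.9 to 71.3). This interval overlaps that of the tRNA-named rows, and over all protein-coding rows the share was 53.9% (52.0 to 55.8). With each of the 125 clones weighted equally, RNAi-only calls averaged 43.2% of tRNA-named rows and 33.8% of other rows. Control-only calls averaged 16.3% and 20.2%, and shared calls 40.5% and 46.0%.

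The call of a tRNA-named gene inside a protein-coding gene was mostly that of its host. By the RefSeq annotation, 404 of the 821 tRNA-named genes lie within the span of a protein-coding gene. Of the 93 that were listed, 88 had a listed host and 78 of these (88.6%) had the pattern of the host. The 78 comprised 41 shared, 14 control-only and 23 RNAi-only. No control-only gene had an RNAi-only host, and no RNAi-only gene a control-only host. The host carried another clone name in 14 cases, and all 14 had the host's pattern. A peak that spans a tRNA gene also lies in its host. An equal pattern and the absence of opposite calls are therefore partly built into the way calls were assigned.

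The hosts cover many functions. Shared hosts of a shared tRNA-named gene included cye-1 (C37A2.4, cyclin E, around C37A2.t1), src-1 (Y92H12A.1, a Src-family kinase, around Y92H12A.t1), snrp-200 (Y46G5A.4, a spliceosomal helicase, around Y46G5A.t1) and mdf-2 (Y69A2AR.30, a spindle checkpoint protein, around Y69A2AR.t2). Control-only pairs included C28A5.t2 in ceh-43 (C28A5.4, a Distal-less homeobox gene), W07G4.t1 in fmi-1 (F15B9.7, a Flamingo-type cadherin) and F56F10.t1 in lgl-1 (F56F10.4, a cell polarity gene). RNAi-only pairs included C52E12.t1, a tRNA pseudogene, in unc-104 (C52E12.2, a kinesin motor), E03E2.t1 in cat-1 (W01C8.6, the vesicular monoamine transporter) and F15G9.t1 and F15G9.t2 in him-4 (F15G9.4, the matrix protein hemicentin). Some hosts belong to the tRNA pathway itself. T08B2.t1, a pseudogene, lies in the phenylalanyl-tRNA synthetase gene fars-1 (T08B2.9), and Y102E9.t1 lies in wdr-4 (Y102E9.2), whose yeast and human counterparts are part of a tRNA methyltransferase. Both pairs were shared. The pseudogene W02A11.t1 differed, being control-only within the shared tRNA methyltransferase gene trm-61A (W02A11.1). The examples in this paragraph were chosen after their values were seen.

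In all exceptions with a listed host, that host was shared, which the way calls were assigned also favours. All 10 members that differed from a listed host were called in a single condition within a shared host. Of these, 8 were RNAi-only and 2 control-only, beside 73 and 32 over all single-condition tRNA-named rows. Among the 8 were F14B4.t1 in F14B4.1, T04D3.t2 in gcy-35 (T04D3.4, a soluble guanylate cyclase), W09G10.t1 in col-72, and W02G9.t1 in ndx-2 (W02G9.1) and W02G9.t2 in kel-8 (W02G9.2). W02G9.t2 lies within 2 protein-coding genes, of which the first by name was used, and neither had its pattern. The 2 control-only ones were C44C11.t1 in ras-1 (C44C11.1, a small GTPase gene) and W02A11.t1 in trm-61A (W02A11.1, a tRNA methyltransferase gene), and both are annotated as tRNA pseudogenes. A long gene can keep its call through a peak elsewhere in its span, and the position of the peaks was not analysed.

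**Figure D4:**
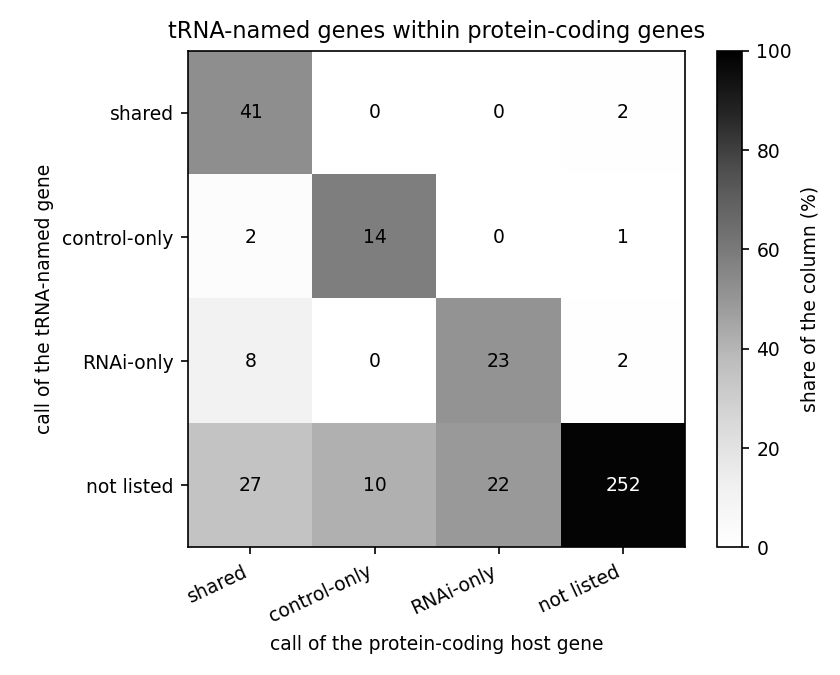
Call of the 404 annotated tRNA-named genes within a protein-coding gene (rows) against the call of that host gene (columns), with the number of genes in each cell and shading by the share of the column (%). Matching calls fill 41, 14 and 23 genes, the cells of opposite single-condition calls hold 0, and 252 genes are unlisted within an unlisted host.

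A called host did not always come with a called tRNA-named gene. Of 78 tRNA-named genes within a shared host, 51 (65.4%) were listed and 27 were not. Within control-only hosts 14 of 24 (58.3%) were listed, and within RNAi-only hosts 23 of 45 (51.1%). Within hosts that were not listed, 5 of 257 (1.95%) were listed. A low share is partly built in here too, since a peak over such a gene also lies in its host. Over all listed hosts 59.9% of tRNA-named genes were listed, beside 55.0% of 171 snoRNA genes, 55.1% of 69 miRNA genes and 78.6% of 42 snRNA genes in the same position. For listed members of a listed host, the pattern equalled that of the host in 92.6% of snoRNA, 89.5% of miRNA and 93.9% of snRNA genes, beside the 88.6% of tRNA-named genes. As single genes, 105 of the 284 hosts (37.0%) were listed, against 29.9% of all 19983 protein-coding genes.

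The lean to RNAi-only calls was seen inside and outside protein-coding genes. Of the 50 single-condition rows within a host, 33 (66.0%) were RNAi-only, and of the 55 outside a host, 40 (72.7%) were. Outside hosts, 80 of 417 annotated tRNA-named genes were listed (19.2%), and within hosts 93 of 404 (23.0%). The difference between these positions was not tested.

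Calls with no listed gene of another kind next to them were a minority. Of the 173 rows, 155 had at least 1 listed gene of another kind overlapping or directly adjacent in the WBcel235 gene order, and 146 of these (94.2%) had the pattern of at least 1 such gene. With the nearest and enclosing protein-coding genes only, 117 of 142 rows with a listed one (82.4%) had the pattern of at least 1. These were 60 of 60 shared, 19 of 27 control-only and 38 of 55 RNAi-only rows. Both measures count a host as a neighbour, and 78 of the 88 rows with a listed host had its pattern. They therefore partly repeat the host result, which is partly built in, and no background share was computed for them. The 18 rows with no listed gene of another kind overlapping or adjacent comprised 4 shared, 3 control-only and 11 RNAi-only rows. Among them were the shared T18D3.t1 and K08H2.t1, the control-only ZK154.t3, and the RNAi-only C53C7.t1, C53C7.t2, F12D9.t2, T26C11.t1 and W03G11.t1. W03G11.t1 stood against its clone, where all 6 other rows were control-only. T26C11.t1 did so too, since all 4 other rows of T26C11 were shared. K08H2.t1 had 1 control-only and 1 RNAi-only row in its clone. These are the calls least tied to a neighbouring gene in this table, and whether the 250 bp or 45% rule also applied to an unlisted neighbour under the same peak cannot be read from it.

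Some single-condition tRNA-named rows bordered on a shared gene. Of the 73 RNAi-only rows, 17 (23.3%) had an overlapping or adjacent gene that was shared. Of the 32 control-only rows, 9 (28.1%) had one, and of the 68 shared rows 63 (92.6%) did. The rows counted include 11 RNAi-only, 3 control-only and 4 shared ones with no listed gene of another kind next to them. As a background, 9.52% of the 46926 annotated genes and 16.8% of the 19983 protein-coding genes were shared. A row can have several neighbours, and the share expected from these backgrounds was not computed. The shares for single-condition rows are therefore not shown to be low. Neighbours can lie under the same peak, which favours the high share among shared rows.

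In 22 rows no other row of the clone had the same pattern, either because all differed, in 15, or because the clone had no other row, in 7. The 22 comprised 2 shared, 5 control-only and 15 RNAi-only rows. Control-only rows of this kind were C44C11.t1, W02A11.t1, Y66A7A.t1, ZK154.t3 and Y53G8B.t9, and 4 of these 5 are tRNA pseudogenes. RNAi-only rows of this kind included E03E2.t1, whose host cat-1 has another clone name and the same pattern. A mismatch with the clone name is thus not always a mismatch with the surrounding gene.

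Genes of the machinery that transcribes tRNA genes were mostly shared. Of 17 genes for RNA polymerase III subunits, the factors TFIIIB and TFIIIC and the repressor mafr-1, 13 were shared (background 16.8% of the 19983 protein-coding genes), including the largest subunits rpc-1 and rpc-2 and the TFIIIB components brf-1 and tbp-1. None was control-only (background 6.03%), and 3 were RNAi-only (background 7.05%). These were mafr-1, and rpb-5 and rpb-12, which encode subunits common to the nuclear RNA polymerases. The gene tftc-1 was not listed. Of 12 tRNA processing and modification genes in the gene table, 7 were shared, 0 control-only, and 2, the methyltransferase gene nsun-2 and the thiolation gene tut-2, RNAi-only. The shared genes included elpc-3, of the Elongator complex, and alkb-8, a wobble uridine modification gene. The other 3 genes, elpc-1, popl-1 and rtcb-1, were not listed.

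The aminoacyl-tRNA synthetase genes, which charge tRNAs, split evenly between conditions. Of 34 in the gene table, 13 were shared, 5 control-only and 5 RNAi-only, beside 16.8%, 6.03% and 7.05% of protein-coding genes, and 11 were not listed. Shared examples were aars-2, cars-1, dars-2 and ears-1. The control-only genes were mars-2, nars-2, qars-1, rars-2 and tars-1, and the RNAi-only genes hars-1, iars-1, nars-1, sars-2 and wars-1.

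Checks on the labels were limited to calls. The gene ama-1 was shared and sig-7 RNAi-only, and a polymerase call does not measure the transcript, so the knockdown was not checked. Of 9 early zygotic genes 3 were shared, 0 control-only and 3 RNAi-only (ceh-51, med-2 and tbx-11), and end-1, end-3 and med-1 were not listed. Of 5 germline and maternal genes 2 were shared, 0 control-only and 2 RNAi-only (glp-1 and mex-1), and pgl-1 was not listed. Of all protein-coding genes, 29.9% were listed, with 16.8% shared, 6.03% control-only and 7.05% RNAi-only. The epidermal genes elt-1, elt-3 and lin-26 were control-only, the muscle gene hlh-1 was shared and unc-120 control-only. Neither of the 2 intestine genes was listed, and of 6 vitellogenin genes, a sign of carry-over from mothers, 1 was called, RNAi-only. Single-condition calls were thus RNAi-only in the zygotic and germline lists and control-only in the epidermal and muscle lists. Each list rests on 3 such genes or fewer, the muscle list on unc-120 alone. The genes med-2 (K04C2.6) and mex-1 (W03C9.7) lie in clones that hold RNAi-only tRNA-named rows, so they are not independent of those rows. The part of these lists in the result for tRNA-named genes was not tested.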

How the data were processed

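AMA-1 chromatin immunoprecipitation and sequencing was deposited as a table of calls, 1 row per gene. Per the file headers, the authors made broad peak calls with MACS2 (cutoff 0.01), assigned them to genes and merged the 2 replicates into a category of 0 or 1. The submitters' processing notes name Bowtie 1.0.1 and genome build ce10. The annotation, the role of the inputs and the version of MACS2 were each not given in the sources used here. A gene shorter than 250 bp, such as a tRNA gene, can be called only through the 45% rule.

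Ignoring case, names were matched to RefSeq WBcel235 (8824 of 8922, and 173 of 173 tRNA-named). Since that is another build, it gave only names, kinds of gene and which genes neighbour or enclose each other. Counts, shares and exact intervals were computed with Python 3.11.15, pandas 2.3.3 and scipy 1.17.1, and the scripts were tested on simulated data. No isotype or start-site sequence was analysed. Named genes were all tRNA-named rows of clones with 3 or more, up to 4 per pattern that matched no other row or had none in their clone, and up to 4 pathway genes per list and pattern (all 5 where a count of 5 is given). Of the pathway symbols, 3 were absent from the gene table. Members and lists were chosen with earlier results of these data known. Depth is unknown.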

Additional observations from a re-analysis of the deposited data

How the results depend on the processing

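No paired analysis was possible because each deposited call already joins its 2 replicates, and for the same reason no replicate could be left out. The share of RNAi-only calls among single-condition tRNA-named rows, 69.5%, stayed above 50% under each of the 9 alternatives tried. Over all protein-coding rows it was 53.9%. For tRNA-named rows it was 78.6% of 14 rows with no listed neighbour (95% interval 49.2 to 95.3). It was 83.3% of 6 rows with no other row in the clone (35.9 to 99.6). Both shares lie outside the main interval of 59.8 to 78.1. These settings leave few rows, and their own lower limits fall below 50%. Under the other 7 it lay between 66.0% and 74.6%. They were each clone and pattern counted only 1 time, annotated tRNA genes, names with a small t (the same 173 rows, as no capital T occurs), H08J11 left out, rows within a host, rows outside one and clones with 1 such row. The small t setting cannot change the share, and leaving out H08J11, whose rows were all control-only, can only raise it. Rows within and outside a host are parts of the same 105 rows. The share of rows matched in their clone, 91.0%, became 76.6% without piRNA and ncRNA rows and 75.7% with protein-coding rows only, where fewer rows can match. It was between 90.7% and 94.2% with clones as units, without H08J11 and with adjacent genes of any other kind in place of the clone. With the nearest and enclosing protein-coding genes in that place it was 82.4% of 142 rows. The settings with adjacent or enclosing genes count the host, whose match is partly built in. The settings on hosts, on clones with 1 row, on piRNA and ncRNA rows, on protein-coding rows and without Y57G11C and B0350 were chosen after seeing the data. The calls carry no depth, and a 0 may hide a peak in 1 replicate.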
